A study of Rattus norvegicus with 4 samples.

Results

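The genes of phospholipid and triacylglycerol synthesis and turnover were described in rat oligodendrocyte precursor cells (OPCs) after silencing of Gpr17. They are 41 genes chosen by name for the step they serve, from the acylation of glycerol-3-phosphate to the choline and ethanolamine branches, lipid droplets and lipolysis. The rule that names them uses no measured value, although it was set with earlier results of these data known. Of these, 37 had a probe that could be named through its transcript accession, among 16568 such genes on the arrays, and 36 were bright enough to be tested, among 11656 tested genes.

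OPCs came from the cortices of Sprague–Dawley rat pups at postnatal day 2, which were pooled, and had proliferated for 3 days with PDGF and bFGF before they were moved to a differentiating medium with the thyroid hormone T3. They received 50 nM of an siRNA pool against rat Gpr17 (siGPR17) or of a non-targeting pool (siNEG) with Lipofectamine RNAiMAX, and were lysed 48 h later, after 2 days in the differentiating medium. Both groups thus share the strain, age, media, transfection reagent and dose, and differ in the siRNA. Each group had 2 samples, described as independent, and each sample was labelled with 1 dye and hybridised to 1 array. The p-values below rest on the spread between these samples alone. In limma the spread of each probe is also drawn toward that of all tested probes. GPR17 is a G protein-coupled receptor of the oligodendroglial lineage that is present for a limited window of maturation.

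Cells build glycerolipids by adding fatty acids to glycerol-3-phosphate, which gives lysophosphatidate and then phosphatidate. Phosphatidate is either dephosphorylated to diacylglycerol, the precursor of triacylglycerol, phosphatidylcholine and phosphatidylethanolamine, or activated with CTP to CDP-diacylglycerol, the precursor of phosphatidylinositol and cardiolipin. Choline and ethanolamine enter by parallel routes, each with a kinase, a cytidylyl transferase that sets the pace and a final transferase. Oligodendrocytes extend a large area of membrane during maturation, and myelin is rich in phosphatidylethanolamine, much of it as ether-linked plasmalogens.

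The targeted gene was examined first. Its normalized signal was 1107 and 1113 on the siNEG arrays and 652 and 639 on the siGPR17 arrays, a 1.72-fold difference with a log2 fold change of -0.78 (95% confidence interval -1.01 to -0.55). The groups did not overlap, although the adjusted p in limma was 0.209. The signal is the processed intensity of the brightest probe of a gene, scaled to the 75th percentile of its array and brought to a common linear scale. All log2 fold changes are siGPR17 minus siNEG, and p-values were adjusted over the 28016 tested probes of the whole array. Correlations between arrays ran from 0.992 to 0.996, no spot was saturated, and 26997 to 28244 probes were well above background per array. The siNEG samples lay in 1 column of the slide and the siGPR17 samples in another, so slide column and treatment cannot be told apart.

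The labelled cell type was checked against marker lists. All 5 OPC markers and all 5 markers of the oligodendrocyte lineage were well above background on every array, as were 6 of 8 of mature oligodendrocytes, 10 of 10 of astrocytes, 9 of 10 of neurons, 8 of 11 of microglia, 4 of 7 of endothelium and 3 of 8 of fibroblasts and mural cells. Not well above background on any array were Ermn of the mature oligodendrocyte list, Csf1r and Ptprc of microglia, Slc17a6 of neurons, Pecam1 and Cldn5 of endothelium, and Dcn, Lum, Pdgfrb and Rgs5 of fibroblasts and mural cells. The summed signal of the OPC list, which includes Gpr17, was 71367 and 73187 in siNEG and 57424 and 55117 in siGPR17, and all 5 members had a log2 fold change below 0. The tested neuronal markers were lower in 9 of 9 (sums 7384 and 8725 against 7138 and 6876), and the endothelial markers higher in 4 of 4 (sums 1207 and 1093 against 1673 and 1578). The lineage markers were below 0 in 5 of 5, with a median of -0.10, and the 3 tested fibroblast and mural markers were above 0. The other lists had members on both sides of 0. The summed signals of these lists were 189805 and 233528 against 189754 and 192419 for the lineage, 261905 and 292770 against 315120.0 and 329090.0 for mature oligodendrocytes, 118964 and 133824 against 122522 and 123840.0 for astrocytes, 8934 and 8175 against 8669 and 8729 for microglia, and 481 and 359 against 509 and 486 for fibroblasts and mural cells. Aldoc alone read 107483 and 121582 against 111314 and 112583, so the astrocyte sums mostly reflect that gene. The 10 tested astrocyte markers ran from -1.35 (Aqp4) to 0.50 (S100b), 5 above 0 and 5 below. Mbp, at 197178 and 227699 against 256521 and 272873, likewise made up most of the mature oligodendrocyte sums. The tested markers of that list ran from -0.67 (Mog) to 0.40 (Aspa), 3 above 0 and 3 below. None of the tested markers was past the thresholds. The part of other cell types in the values below was not tested, and in bulk RNA fewer cells of a type and less RNA per cell cannot be told apart.

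No tested member was called between siGPR17 and siNEG OPCs. None (0 of 36) passed a fold of 1.5 together with an adjusted p under 0.07 in limma, the thresholds of the study, with adjusted p-values from 0.209 to 0.988. Under the same rule 0% of all tested genes were called. At an unadjusted p under 0.05 limma gave 4 members, 11.1% of the 36, against 16.2% of all tested genes. Pcyt2 and Pnpla3 were on the higher side, where the background was 7.43%, and Agpat3 and Pcyt1b on the lower side, where it was 8.73%. The methods' t-test on the same values gave 0 members past the thresholds after adjustment. At an unadjusted p under 0.05 it gave 4, with Lpcat1 in place of Pcyt2, where 14.4% of all tested genes were under 0.05. The count of 4 was 8 without siNEG 1, 6 without siNEG 2 and 1 (Agpat3) without either siGPR17 array, while the share of all tested genes was 22.9%, 16.8%, and 6.58% and 6.07% without siGPR17 1 and 2. In these fits the group with a single array is assumed to vary like the other group. In the fit on all 4 arrays no member reached a fold of 1.5 on its brightest probe, which 5.08% of all tested genes did. Agpat3 went past that fold without siNEG 1 (log2 fold change -0.60), and Pcyt2 did when arrays were scaled to the spike-in controls (0.61). The dimmer probe of Pnpla3 also did (0.59).

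The members stood on both sides of 0 in equal number, 18 above and 18 below, where 52% of all tested genes were above. When arrays were scaled to the spike-in controls instead, the median of all genes moved to 0.23 and 30 of 36 members were above 0, with a standard error of 0.75 for a single gene. With the percentile scaling the log2 fold changes of the members ran from -0.54 to 0.39 with a median of -0.015, beside a median of 0.0099 over all tested genes. The median size of the change, whatever its sign, was 0.15 in the members and 0.14 over all genes. Signals of siGPR17 and siNEG were fully apart in 17 members, 9 higher and 8 lower, or 47.2%. This happened in 53.4% of all tested genes, 28.1% higher and 25.3% lower. The counts and sizes of the members thus lay near those of all genes, or below them.

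Limits of the fit set what could have been seen. The median standard error of a member was 0.10 on the log2 scale, and a 95% interval of most members spans both a modest rise and a modest fall. A p above the threshold here does not show that a gene had the same level in both groups. The siNEG samples differed from each other more than the siGPR17 samples did over all tested probes (SD of the replicate difference 0.37 and 0.29 on the log2 scale), and 25 of 36 members were higher in siNEG 2 than in siNEG 1. That share of 69.4% compares with 62.1% over all tested genes. Between the siGPR17 samples the members split evenly, with 18 of 36 higher in siGPR17 2.

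**Figure D1:**
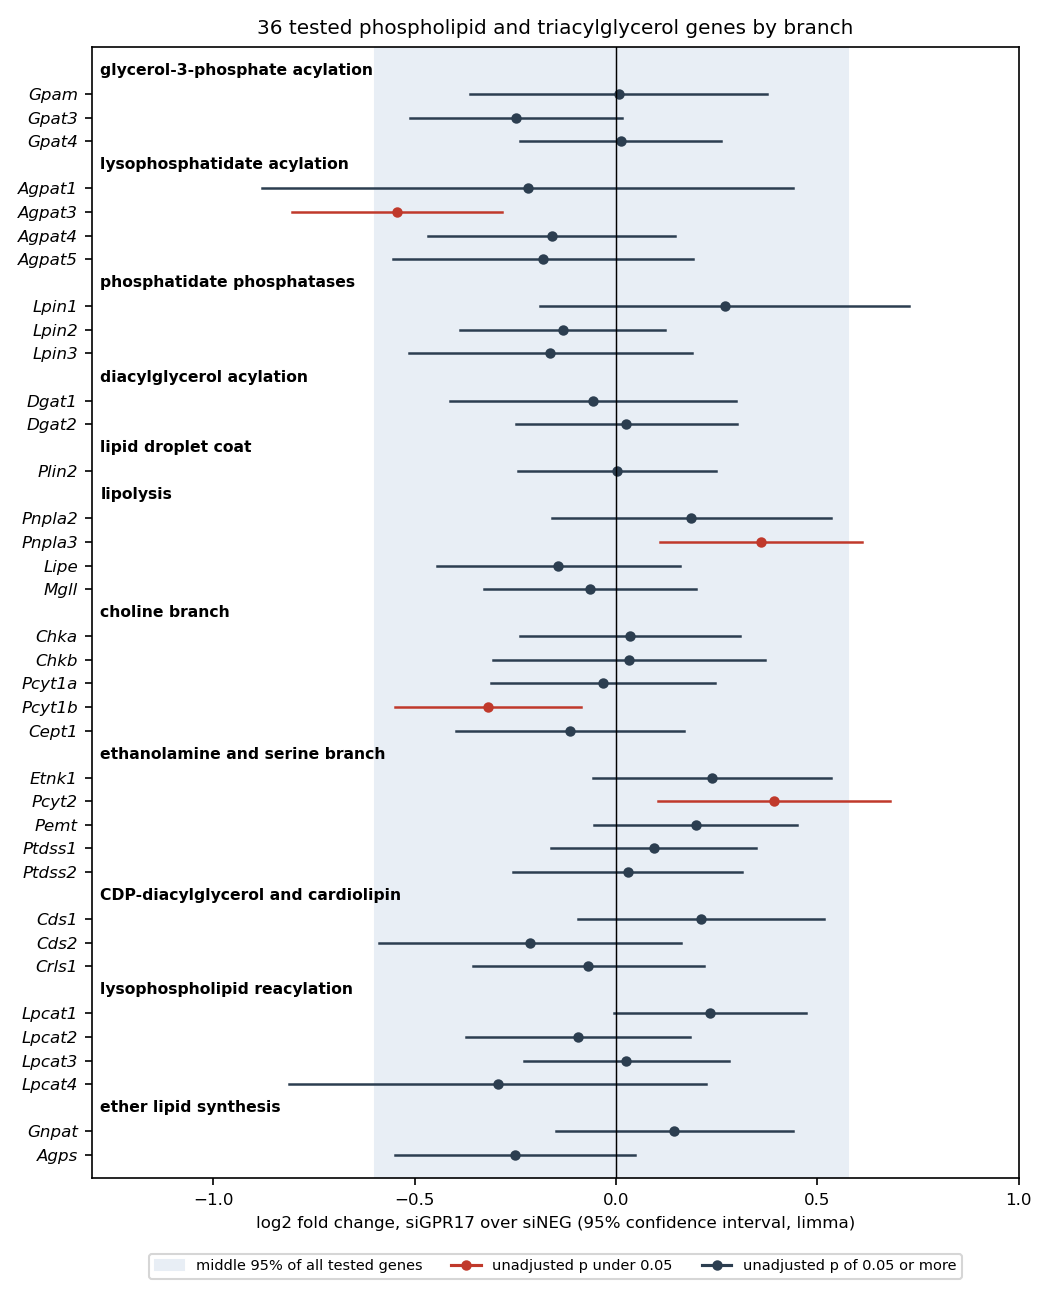
Log2 fold change of siGPR17 over siNEG for each of the 36 tested members, grouped by branch, with 95% confidence intervals from limma (2 arrays per group). The shaded band holds the middle 95% of all tested genes, from -0.60 to 0.58. Every point lies inside the band, and the intervals of Agpat3, Pnpla3, Pcyt1b and Pcyt2 (red) do not cross 0.

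The promoters of the 4 members with an unadjusted p under 0.05 are shown because these members have the lowest p-values of the 36. Each line holds the 250 bases before the annotated start of the gene from RefSeq (build GRCr8), 5′ to 3′ on the strand of the gene. Capitals mark CCAAT boxes, read as CCAAT on either strand, and GC boxes, read as GGGCGG on either strand, and no marked run overlaps another.
Agpat3 (chr20:10383931-10384180, plus strand): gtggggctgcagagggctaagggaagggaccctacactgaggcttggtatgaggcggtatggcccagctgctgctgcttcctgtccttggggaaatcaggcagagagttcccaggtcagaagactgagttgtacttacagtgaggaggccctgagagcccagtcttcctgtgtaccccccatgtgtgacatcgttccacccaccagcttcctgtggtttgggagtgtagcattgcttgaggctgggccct
Pcyt1b (chrX:62398568-62398817, plus strand): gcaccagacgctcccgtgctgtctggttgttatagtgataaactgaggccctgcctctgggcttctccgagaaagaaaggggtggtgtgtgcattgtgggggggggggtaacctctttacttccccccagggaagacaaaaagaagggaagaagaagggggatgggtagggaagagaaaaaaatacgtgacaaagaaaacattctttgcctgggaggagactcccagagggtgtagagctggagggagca
Pcyt2 (chr10:106394469-106394718, minus strand): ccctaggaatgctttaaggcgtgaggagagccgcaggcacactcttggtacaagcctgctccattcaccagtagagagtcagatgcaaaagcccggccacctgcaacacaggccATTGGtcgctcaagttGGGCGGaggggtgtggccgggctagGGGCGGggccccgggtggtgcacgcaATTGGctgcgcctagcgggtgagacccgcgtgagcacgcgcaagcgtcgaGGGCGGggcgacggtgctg
Pnpla3 (chr7:117173278-117173527, plus strand): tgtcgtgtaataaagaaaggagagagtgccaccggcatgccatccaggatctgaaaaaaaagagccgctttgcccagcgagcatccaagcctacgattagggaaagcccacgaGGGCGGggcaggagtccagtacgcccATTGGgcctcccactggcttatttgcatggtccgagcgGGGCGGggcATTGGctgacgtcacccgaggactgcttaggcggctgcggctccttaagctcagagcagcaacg
The windows of both members on the lower side held neither motif. The window of Pcyt2 held 2 CCAAT boxes and 3 GC boxes, and that of Pnpla3 held 2 of each. Other tested members held both motifs on either side of 0. These were Agpat1, Agps, Cds2 and Mgll below 0, and Chka, Chkb, Etnk1 and Lpcat3 above 0. A link between motif and direction was not tested. Among the 33469 rat promoters of the same length, 34% held a CCAAT box and 30.5% a GC box. Of the 41 members, 35 had a promoter entry, and 19 of these (54.3%) held a CCAAT box and 22 (62.9%) a GC box. For every motif here, members are counted per gene and the background per promoter entry, over all entries and not the tested genes. The shares are therefore not of like sets, and the difference was not tested. The E-box CACGTG was in the windows of Crls1, Mgll and Plin2, 3 of 35, against 5.59% of all promoters. The sterol regulatory element TCACNCCAC, which the SREBP factors of lipid synthesis are known to bind, was in that of Pcyt1a alone, 1 of 35, against 0.974%. Such matches describe letters in these windows and are not binding sites.

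The first acylation, of glycerol-3-phosphate, is carried out by Gpam on mitochondria and by Gpat3 and Gpat4 at the endoplasmic reticulum. The signal of Gpat4 was 8026 and 8386 on the siNEG arrays and 8041 and 8505 on the siGPR17 arrays. The arrays of the groups were interleaved, and its log2 fold change was 0.012 (95% confidence interval -0.24 to 0.26). Gpat3 read 328 and 307 on the siNEG arrays and 258 and 276 on the siGPR17 arrays. Both siGPR17 arrays were below both siNEG arrays, with a log2 fold change of -0.25 (95% confidence interval -0.51 to 0.015, adjusted p = 0.313 in limma). A second probe of Gpat3 was at background on all 4 arrays. Gpam had a log2 fold change of 0.0064 on its brightest probe, and its sign turned when siNEG 1 was left out (-0.095). The dimmer probes of Gpam gave 0.19 and 0.19, each with both siGPR17 arrays above both siNEG arrays.

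The second acylation, of lysophosphatidate, held the largest log2 fold change among the members on their brightest probes with the percentile scaling, that of Agpat3. It was exceeded by the dimmer probe of Pnpla3 (0.59) and, under spike-in scaling, by Pcyt2 (0.61 against -0.33 for Agpat3). All 4 tested genes of this step, Agpat1, Agpat3, Agpat4 and Agpat5, were below 0, with a median of -0.20, and 2 of them did not overlap between groups. Over all tested genes 52% were above 0 and 53.4% did not overlap, so the count of 2 is near the background. Under the spike-in scaling Agpat4 and Agpat5 were above 0. Agpat3, an acyltransferase of the endoplasmic reticulum and Golgi that makes phosphatidate, read 9720.1 and 10472 on the siNEG arrays and 7095 and 6752 on the siGPR17 arrays. The siGPR17 arrays were the lowest pair, and the gap between the groups exceeded the difference within either. The means were 10096 ± 532 (SD, n = 2) for siNEG against 6923 ± 242 (SD, n = 2) for siGPR17, or 1.46-fold lower, with a log2 fold change of -0.54 (standard error 0.095, 95% confidence interval -0.80 to -0.28). The adjusted p of Agpat3 was 0.209 in limma. It was 0.0321 when the spread was estimated with a trend and robustly, and 0.0452 after normexp background correction. Agpat3 stayed under the fold of 1.5 in each of these fits, so it was not called. The difference was -0.45 between the arrays numbered 1 and -0.63 between those numbered 2.

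With the trend and robust estimation 1.58% of all tested genes passed the thresholds of the study and 0 members did. With the adjusted p alone in that fit, a combination chosen after seeing the data, 4.08% of all tested genes passed and Agpat3 was the 1 member that did.

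Agpat4, an acyltransferase that is abundant in brain, read 50002 and 57984 on the siNEG arrays and 48276 and 48124 on the siGPR17 arrays. Its siGPR17 arrays lay just below siNEG 1 and well below siNEG 2, and the log2 fold change was -0.16 (95% confidence interval -0.47 to 0.15). Agpat1 read 21936 and 34390.4 on the siNEG arrays and 24082 and 23113 on the siGPR17 arrays. Here siNEG 2 stood apart and the other 3 arrays were close to each other. The log2 fold change of Agpat1 was -0.22 (95% confidence interval -0.88 to 0.44), but 0.10 without siNEG 2 and -0.54 without siNEG 1. Agpat5, which is found at mitochondria, had a log2 fold change of -0.18 with overlapping groups. Agpat2, the isoform known for its role in fat tissue, did not rise well above background on any of the arrays, so it was not tested and no fold is given. Its signals of 4.22, 5.14, 3.61 and 4.69 in siNEG 1, siNEG 2, siGPR17 1 and siGPR17 2 are background.

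The lipins remove the phosphate from phosphatidate and thereby feed both triacylglycerol and phospholipid synthesis. Lpin2 read 138 and 128 on the siNEG arrays and 122 and 119.6 on the siGPR17 arrays. Both siGPR17 arrays were lower than both siNEG arrays by a small margin, with a log2 fold change of -0.13 (95% confidence interval -0.39 to 0.12). Lpin3 read 77.2 and 63.9 on the siNEG arrays and 64.0 and 61.6 on the siGPR17 arrays, where siNEG 1 alone was high, and had a log2 fold change of -0.16. Lpin1 went the other way, with a log2 fold change of 0.27 and a wide 95% confidence interval of -0.19 to 0.73, and its groups overlapped. Scaled to the spike-in controls, Lpin2 and Lpin3 were also above 0.

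Diacylglycerol is turned into triacylglycerol by Dgat1 and Dgat2, and in neither were the groups apart. Dgat2 read 25373 and 27576 on the siNEG arrays and 25986 and 27899 on the siGPR17 arrays. The groups were interleaved, the log2 fold change was 0.026 (95% confidence interval -0.25 to 0.30), and its sign turned under quantile normalization (-0.015) and normexp (-0.00079). Dgat1 read 4603 and 5610.4 on the siNEG arrays and 4879 and 4892 on the siGPR17 arrays. The siGPR17 arrays lay between the siNEG arrays, with a log2 fold change of -0.057 on this probe and 0.0096 on the dimmer probe. Triacylglycerol is stored in droplets whose coat protein Plin2 read 148 and 158 on the siNEG arrays and 152 and 155 on the siGPR17 arrays. Its siGPR17 arrays again lay between the siNEG arrays, with a log2 fold change of 0.0036 (95% confidence interval -0.24 to 0.25). The other coat protein, Plin3, had no matched probe.

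Triacylglycerol is broken down in steps, by Pnpla2 (adipose triglyceride lipase) to diacylglycerol, by Lipe (hormone-sensitive lipase) to monoacylglycerol and by Mgll to free glycerol and fatty acid. Pnpla3, a droplet protein related to Pnpla2, read 83.9 and 83.8 on the siNEG arrays and 104 and 112 on the siGPR17 arrays. The siNEG arrays were nearly the same, and both siGPR17 arrays were above them. The means were 83.9 ± 0.0453 (SD, n = 2) for siNEG against 108 ± 5.69 (SD, n = 2) for siGPR17, 1.28-fold higher, with a log2 fold change of 0.36 (standard error 0.092, 95% confidence interval 0.11 to 0.61). The unadjusted p was 0.016 and the adjusted p 0.234 in limma. The dimmer probe of Pnpla3 read 32.5 and 31.4 on the siNEG arrays and 44.3 and 51.9 on the siGPR17 arrays. It was higher by a log2 fold change of 0.59 (95% confidence interval 0.27 to 0.91, adjusted p = 0.211 in limma), more than the brightest probe. The difference of Pnpla3 on its brightest probe was 0.31 between the arrays numbered 1 and 0.41 between those numbered 2.

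Pnpla2 read 839.9 and 1014 on the siNEG arrays and 1062 and 1040.0 on the siGPR17 arrays. Both siGPR17 arrays were above siNEG 2 and further above siNEG 1, and the log2 fold change was 0.19 (95% confidence interval -0.16 to 0.53). Mgll, which in brain also degrades an endocannabinoid, read 1156 and 1269 on the siNEG arrays and 1167 and 1152 on the siGPR17 arrays. The log2 fold change of Mgll was -0.063, with overlapping groups. The probes of Lipe disagreed. The brightest gave -0.14, with siGPR17 below siNEG on all arrays, and the dimmer one 0.36, with siGPR17 above, so no direction is given for Lipe. Of the 4 lipolysis genes, 2 were above 0 and 2 below.

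**Figure D2:**
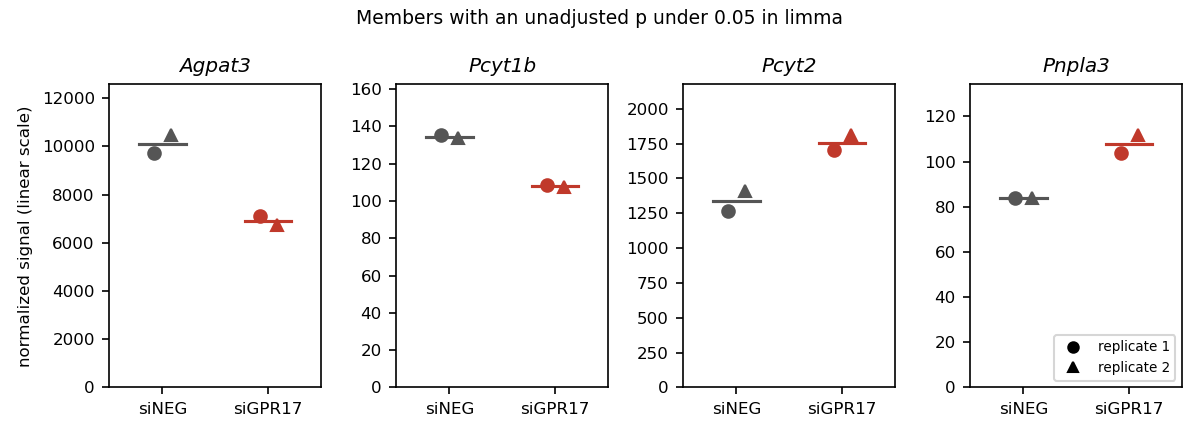
Normalized signal on a linear scale, from 0, of the 4 members with an unadjusted p under 0.05 in limma, on each siNEG and siGPR17 array (circles, replicate 1, and triangles, replicate 2), with the group means as bars. The groups are apart in each panel, Agpat3 and Pcyt1b lower and Pcyt2 and Pnpla3 higher in siGPR17, and signals of different genes are not comparable.

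In the choline route, the kinases Chka and Chkb phosphorylate choline, Pcyt1a and Pcyt1b make CDP-choline, and Cept1 and Chpt1 transfer it to diacylglycerol. Pcyt1b, the cytidylyl transferase isoform known to be more restricted to brain and gonads, read 135 and 134 on the siNEG arrays and 109 and 107.3 on the siGPR17 arrays. The arrays of each group differed by less than 2 signal units, and the siGPR17 pair was the lower one. The means were 135 ± 1.22 (SD, n = 2) for siNEG against 108 ± 1.02 (SD, n = 2) for siGPR17, 1.25-fold lower, with a log2 fold change of -0.32 (standard error 0.084, 95% confidence interval -0.55 to -0.086). The unadjusted p was 0.0186 and the adjusted p 0.240 in limma. The difference of Pcyt1b depended on the background correction, since normexp gave a log2 fold change of -0.13 with an adjusted p of 0.435 in limma.

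The ubiquitous isoform Pcyt1a had a log2 fold change of -0.033 (95% confidence interval -0.31 to 0.24), with both siGPR17 arrays between the siNEG arrays. Cept1, which completes both phosphatidylcholine and phosphatidylethanolamine, read 5894 and 6206 on the siNEG arrays and 5902 and 5289 on the siGPR17 arrays. Only siGPR17 2 stood out, on the low side, and the log2 fold change was -0.11 (95% confidence interval -0.40 to 0.17). Chkb read 2838 and 3365 on the siNEG arrays and 3071 and 3255 on the siGPR17 arrays, with a log2 fold change of 0.033 (95% confidence interval -0.30 to 0.37), and Chka had 0.035 (95% confidence interval -0.24 to 0.31). Neither kinase had groups apart, and the sign of each turned when siNEG 1 was left out (-0.040 for Chka and -0.090 for Chkb). Over the 5 tested genes of the choline route the median was -0.033, with 2 above 0 and 3 below. That median was -0.12 without siNEG 1 and 0.048 without siNEG 2. Chpt1 had no matched probe.

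In the ethanolamine and serine routes all 5 tested genes were above 0, with a median log2 fold change of 0.20, and 4 of the 5 did not overlap between groups. None passed the thresholds. This list of 5 was chosen with earlier results of these data known, and the count depends on how genes were assigned. Cept1, which also completes phosphatidylethanolamine, was counted in the choline route and was below 0 (-0.11). Pemt, whose product is phosphatidylcholine, was counted here. Over all tested genes 52% were above 0 and 53.4% did not overlap, 28.1% with siGPR17 higher. Etnk1 phosphorylates ethanolamine, Pcyt2 makes CDP-ethanolamine, Pemt methylates phosphatidylethanolamine to phosphatidylcholine, and Ptdss1 and Ptdss2 exchange the head group for serine.

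Pcyt2, the step that sets the pace of this route, read 1266 and 1412 on the siNEG arrays and 1700.4 and 1811 on the siGPR17 arrays. Both siGPR17 arrays were above both siNEG arrays, and the gap exceeded the difference within each group. The means were 1339 ± 104 (SD, n = 2) for siNEG against 1756 ± 78.3 (SD, n = 2) for siGPR17, 1.31-fold higher, with a log2 fold change of 0.39 (standard error 0.11, 95% confidence interval 0.10 to 0.68). It was the largest positive log2 fold change among the 36 tested members on their brightest probes. The unadjusted p was 0.019 and the adjusted p 0.241 in limma, or 0.0704 with the trend and robust estimation. The difference was 0.43 between the arrays numbered 1 and 0.36 between those numbered 2, and it ranged from 0.31 to 0.47 when each array was left out in turn.

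Etnk1 read 7539 and 6653 on the siNEG arrays and 8135 and 8580.4 on the siGPR17 arrays. Both siGPR17 arrays were the higher ones, with a log2 fold change of 0.24 (95% confidence interval -0.057 to 0.53, adjusted p = 0.357 in limma). Pemt, an enzyme best known from liver, gave 0.20 on its brightest probe (95% confidence interval -0.054 to 0.45) and 0.25 and 0.20 on its other probes. On each of the 3 probes of Pemt both siGPR17 arrays were above both siNEG arrays. Ptdss1, which makes phosphatidylserine from phosphatidylcholine, read 22744 and 24631 on the siNEG arrays and 25257 and 25259 on the siGPR17 arrays. The siGPR17 arrays were just above siNEG 2, and the log2 fold change was 0.094 (95% confidence interval -0.16 to 0.35). The dimmer probe of Ptdss1 gave 0.092, but there the groups overlapped. Ptdss2, which makes it from phosphatidylethanolamine, had 0.029 with overlapping groups, and -0.056 without siNEG 1. Pisd, which turns phosphatidylserine into phosphatidylethanolamine in mitochondria, had no matched probe.

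**Figure D3:**
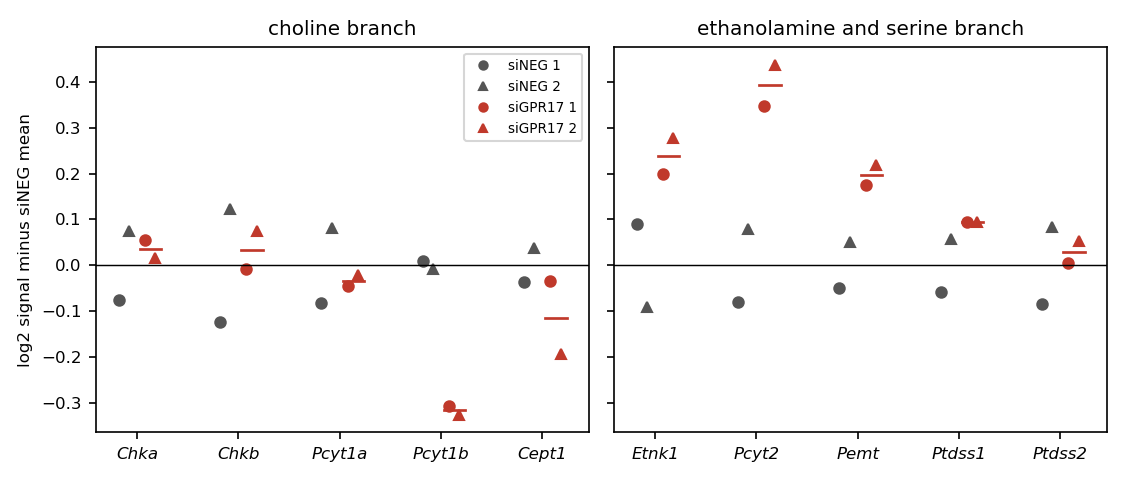
Log2 signal of each array minus the siNEG mean of the same gene, for the 5 tested genes of the choline route (left) and of the ethanolamine and serine route (right), with the siGPR17 mean as a bar. On the left only Pcyt1b has its groups apart, at a mean of -0.32, and on the right Etnk1, Pcyt2, Pemt and Ptdss1 do, at means from 0.094 to 0.39. Cept1 is drawn on the left but serves both routes.

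The step to CDP-diacylglycerol is catalysed by Cds1 and Cds2, and cardiolipin, the lipid of the inner mitochondrial membrane, is completed by Pgs1 and Crls1. Crls1 read 1342 and 1374 on the siNEG arrays and 1377 and 1218 on the siGPR17 arrays. Both siNEG arrays and siGPR17 1 were close to each other and siGPR17 2 was lower, giving a log2 fold change of -0.069 (95% confidence interval -0.36 to 0.22) that turned to 0.020 without siGPR17 2. Cds1 read 83.8 and 73.8 on the siNEG arrays and 87.8 and 94.5 on the siGPR17 arrays, with both siGPR17 arrays higher and a log2 fold change of 0.21 (95% confidence interval -0.094 to 0.52). Cds2 stood on the other side of 0 at -0.21 (95% confidence interval -0.59 to 0.16). Pgs1 had no matched probe.

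Lysophospholipids are reacylated by the Lpcat family, which remodels the fatty acids of phosphatidylcholine. Lpcat3, which favours polyunsaturated fatty acids, read 3009 and 3259 on the siNEG arrays and 3188 and 3187 on the siGPR17 arrays. The siGPR17 arrays lay between the siNEG arrays, and the log2 fold change was 0.026 (95% confidence interval -0.23 to 0.28). Lpcat2 read 181 and 168 on the siNEG arrays and 170.2 and 157 on the siGPR17 arrays, with a log2 fold change of -0.094 and overlapping groups. Lpcat1 had both siGPR17 arrays above both siNEG arrays, with a log2 fold change of 0.23 (95% confidence interval -0.0042 to 0.47, adjusted p = 0.305 in limma). Lpcat4 had the wider interval, from -0.81 to 0.22, around -0.29, and its groups overlapped.

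Ether lipids, the precursors of plasmalogens, are begun in peroxisomes by Gnpat and then Agps. These consecutive enzymes stood on opposite sides of 0. Gnpat read 2145 and 2330.5 on the siNEG arrays and 2346 and 2606 on the siGPR17 arrays, with the siGPR17 arrays above the siNEG arrays and a log2 fold change of 0.15 (95% confidence interval -0.15 to 0.44). Agps read 373 and 425 on the siNEG arrays and 328 and 342 on the siGPR17 arrays, with the siGPR17 arrays below and a log2 fold change of -0.25 (95% confidence interval -0.55 to 0.047, adjusted p = 0.344 in limma). Its second probe gave -0.19, also with the groups apart.

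Of the 36 tested members, 8 had more than 1 tested probe, and their probes were compared. All probes of Pnpla3, Pemt, Ptdss1, Crls1, Agps and Gpam had the same sign, those of Dgat1 lay on both sides of 0 within their standard errors, and those of Lipe had opposite signs.

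**Figure D4:**
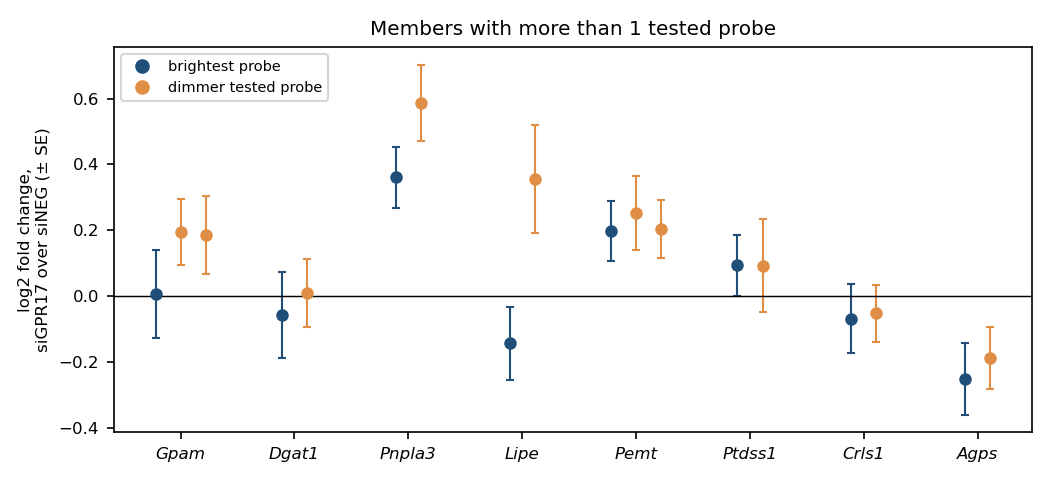
Log2 fold change of siGPR17 over siNEG with its standard error for each tested probe of the 8 members with more than 1, the brightest in blue and dimmer ones in orange. The 3 probes of Pemt lie between 0.20 and 0.25, the dimmer probe of Pnpla3 lies at 0.59 above the brightest at 0.36, and the probes of Lipe lie at -0.14 and 0.36.

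A wider list of 61 other genes of glycerolipid metabolism was set beside the members. Of these, 51 matched a probe and 42 were tested. None of the 42 passed the thresholds in limma (0 of 42), and 4 had an unadjusted p under 0.05, 9.52% against the 16.2% of all tested genes. There were 19 above 0 and 23 below, the groups did not overlap in 19 (45.2%, against 53.4% of all tested genes), and the median log2 fold change was -0.020.

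The lowest p of the wider list was that of Gpd2, the mitochondrial glycerol-3-phosphate dehydrogenase, which draws on the same substrate as the first acylation. It read 826 and 903 on the siNEG arrays and 653 and 635 on the siGPR17 arrays, with both siGPR17 arrays lower and a log2 fold change of -0.42 (adjusted p = 0.217 in limma). With the adjusted p alone and the trend and robust estimation, Gpd2 was the 1 gene of the wider list that passed. Gk, the glycerol kinase that makes glycerol-3-phosphate, read 346 and 367 on the siNEG arrays and 285 and 253 on the siGPR17 arrays, with a log2 fold change of -0.41. Cnep1r1, the regulatory subunit of a phosphatase that activates lipins, read 679 and 678 on the siNEG arrays and 546 and 479.9 on the siGPR17 arrays, with a log2 fold change of -0.41. In both genes the siGPR17 arrays were the lower pair. Peds1, the desaturase that makes the plasmalogen bond, was on the other side, at 692 and 704 on the siNEG arrays and 886 and 866 on the siGPR17 arrays and a log2 fold change of 0.33. Gk is named beyond the rule of the 3 smallest p-values, after its values were seen, to complete the 4.

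The droplet genes Plin4, Plin5, Cidea and Cidec were matched but too dim to be tested, as were Slc44a3, Phospho1, Mogat2, Pla2g4a and Pld2.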

How the data were processed

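Total RNA of 4 samples was labelled with Cy3 and hybridised to one-color Agilent arrays on 1 slide, scanned once. The authors deposited spot intensities from Feature Extraction 10.7.3.1 (submitters' processing notes), in which the processed intensity is corrected for background and spatial trends and is not normalized between arrays. The files hold 45598 non-control probes. Here, log2 processed intensities minus the 75th percentile of each array (564.9 to 624.1) were fitted with limma 3.58.1 in R 4.3.3, with no covariate, on the 28016 probes that 2 or more of the 4 arrays showed well above background, with Benjamini-Hochberg adjustment over these probes. Calls needed a fold of 1.5 and an adjusted p under 0.07, the thresholds of the study. The paragraph of its methods on the arrays names no test, so the two-tailed unpaired Student test that its general statistics give for 2 groups was run as an alternative ("the methods' t-test"). Of the 45565 non-control probes with a value on all arrays, tested or not, 21093 were named through transcript accessions matched to a RefSeq gene table. The brightest tested probe stood for each of 11656 genes. The script was tested on simulated data. An exact permutation test of 2 against 2 arrays cannot go below p = 0.333, so none was used. The number of arrays limits the precision.

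The members and gene lists were chosen with earlier results of these data known. Signals on all arrays are given for members with an unadjusted p under 0.05 and for the 1 or 2 brightest others of each branch, and of the wider list the genes with the 3 smallest p-values are named. Promoters were read from a RefSeq table of build GRCr8. Alternatives were normexp (offset 50, on the spot and background medians), quantile, median and spike-in scaling, other filters, a floor, trend and robust estimation, the methods' t-test, a replicate block, another probe per gene, no fold threshold and each array left out.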

Additional observations from a re-analysis of the deposited data

How the results depend on the processing

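No member was called under any alternative except Agpat3, 1 member, with the adjusted p alone together with trend and robust estimation, a combination chosen after seeing the data that also called 985 probes and 1 gene of the wider list (Gpd2). The 1 probe called in limma has no gene name here; the count was 242 with normexp, 4 with spike-in scaling, 420 with trend and robust estimation, 736 with the methods' t-test without adjustment, and 0 with the adjusted t-test, with no filter, with a filter on all 4 arrays, with a floor, and without any 1 array (0 to 0). Members with an unadjusted p under 0.05 numbered 4 in limma (16.2% of all tested genes), 7 with quantile normalization (18.7%), 0 with spike-in scaling (0.326%), 8 with trend and robust estimation (20.8%, also with no fold threshold) and 1 to 8 when each array was left out (6.07% to 22.9%). Gpr17 passed with normexp (-0.66), with trend and robust estimation (-0.78) and with the unadjusted methods' t-test (-0.78). Another choice of probe per gene does not change the count of probes.

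The replicate numbers are also slide rows, and the labels do not say that a number pairs samples. The differences between replicates correlated at -0.0652 across the groups. With the replicate block 0 probes and 0 members were called. In that fit 3 of 36 members had an unadjusted p under 0.05, Pcyt1b not among them, beside 11% of all tested genes.

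Scaling to the spike-in controls moved the median of all genes from 0.0099 to 0.23, with a standard error of 0.75 for a single gene, and put 30 of 36 members above 0. The medians then were 0.22 for glycerol-3-phosphate acylation, 0.016 for lysophosphatidate acylation, 0.084 for phosphatidate phosphatases, 0.20 for diacylglycerol acylation, 0.22 for the droplet coat, 0.28 for lipolysis, 0.18 for choline, 0.41 for ethanolamine and serine, 0.15 for CDP-diacylglycerol and cardiolipin, 0.18 for reacylation, 0.16 for ether lipids and 0.20 for all members, against a shift of the same size in every gene. It turned Agpat4 (0.056), Agpat5 (0.036), Lpin2 (0.084), Lpin3 (0.053), Dgat1 (0.16), Lipe (0.073), Mgll (0.15), Pcyt1a (0.18), Cept1 (0.10), Cds2 (0.0032), Crls1 (0.15) and Lpcat2 (0.12). Normexp gave medians of -0.056 for the phosphatases and 0.030 for reacylation and turned Dgat2 (-0.00079), Chkb (-0.012) and Pcyt1a (0.033), and quantile normalization turned Dgat2 (-0.015). With the mean of all probes the lipolysis median was 0.15 and Lipe 0.11; with the probe of largest change lipolysis was 0.27, ethanolamine and serine 0.24 and Lipe 0.36; with that of smallest change Dgat1 was 0.0096. The cause of these moves, beyond the uniform shift of the spike-in scaling and the choice of probe itself, was not tested.

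With each array left out in turn, branch medians ranged from -0.11 to 0.043 for glycerol-3-phosphate acylation, -0.41 to -0.067 for lysophosphatidate acylation, -0.19 to -0.025 for the phosphatases, -0.12 to 0.086 for diacylglycerol acylation, -0.041 to 0.048 for the droplet coat, -0.034 to 0.16 for lipolysis, -0.12 to 0.048 for choline, 0.15 to 0.22 for ethanolamine and serine, -0.16 to 0.020 for CDP-diacylglycerol and cardiolipin, -0.065 to -0.0036 for reacylation, -0.13 to 0.025 for ether lipids and -0.066 to 0.066 for all members. Of the 36 members, 15 kept their sign under every alternative and 21 did not, with 18 of the turns when an array was left out. Values without 1 array ran from -0.11 to 0.12 for Gpam, -0.029 to 0.052 for Gpat4, -0.54 to 0.10 for Agpat1, -0.20 to 0.086 for Dgat1, -0.034 to 0.086 for Dgat2, -0.041 to 0.048 for Plin2, -0.13 to 0.0036 for Mgll, -0.040 to 0.11 for Chka, -0.090 to 0.16 for Chkb, -0.12 to 0.048 for Pcyt1a, -0.056 to 0.11 for Ptdss2, -0.16 to 0.020 for Crls1 and -0.032 to 0.083 for Lpcat3.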
